A study of Mus musculus with 14 samples.

Results

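Adam23 and the testis ADAM genes Adam1a, Adam1b, Adam2, Adam3, Adam4, Adam5, Adam18, Adam24 and Adam32 were followed in mouse testis RNA along the steps that purify the chromatoid body, a granule of RNA and protein beside the nucleus of round spermatids. These 10 genes were taken by name from the 21905 features with a gene symbol in the deposited joint expression table. Adam23 was picked for its large difference between the purified granule and whole testis lysate in these same values, so that difference is a description and supports nothing. The other 9 were taken as family members.

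All animals were C57BL/6 mice at least 6 weeks old. Tubule cells freed with collagenase were fixed with formaldehyde, sonicated in RIPA buffer and spun, which gave the lysate, the supernatant and a first pellet (pellet1). Pellet1 was sonicated again, filtered and spun into pellet2, and pellet2 was immunoprecipitated (IP) with an antibody against MVH, the DEAD-box helicase that marks the chromatoid body. The sample labels instead describe each IP as made from lysate. The 14 libraries form 9 groups, of which 7 groups with 10 libraries are used: MVH IP (3 libraries), pellet2 (1), pellet1 (1), supernatant (1), round spermatids sorted from adult testis (2, of which 1 was made from RNA above 500 bp), hetMIWI round spermatids (1), named in the labels only by that prefix, and lysate (1). IgG and acrosin IP libraries were not analysed here, so no value below is set against a control IP.

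ADAM proteins are membrane-anchored and carry a metalloprotease and a disintegrin domain. Many of them have lost the residues that hold the catalytic zinc and act as adhesion or scaffold proteins instead. In mouse sperm, ADAM1 and ADAM2 pair as fertilin, and ADAM3 (cyritestin) is needed for sperm to pass into the oviduct and to bind the egg coat. ADAM3 reaches the sperm surface only when its partners and several testis chaperones of the endoplasmic reticulum are present. ADAM23 is best known from brain, where it binds LGI proteins at the synapse.

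The codons at the zinc site show which members keep a protease-type centre, and they divide the genes in the same way as their exon structure does. Each stretch below covers 11 codons (33 bases, 5′ to 3′) of the GENCODE vM21 transcript (GRCm38), aligned through the translated proteins to the zinc site of Adam1b. Capitals mark the codons of the zinc-binding histidines and of the catalytic glutamate where they are kept.
Adam23: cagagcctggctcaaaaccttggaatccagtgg
Adam2: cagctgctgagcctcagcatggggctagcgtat
Adam18: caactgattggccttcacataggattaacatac
Adam3: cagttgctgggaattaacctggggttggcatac
Adam5: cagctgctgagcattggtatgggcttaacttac
Adam32: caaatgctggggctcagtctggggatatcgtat
Adam1a: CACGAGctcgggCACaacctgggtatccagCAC
Adam1b: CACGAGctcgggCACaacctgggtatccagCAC
Adam4: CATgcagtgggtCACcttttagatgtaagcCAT
Adam24: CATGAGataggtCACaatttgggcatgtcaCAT
Adam1a, Adam1b and Adam24 keep all 4 marked codons, Adam4 keeps 3 and lacks that of the catalytic glutamate, and the other 6 genes keep 0. The stretch is identical in Adam1a and Adam1b.

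Adam1a, Adam1b, Adam4 and Adam24 each have 1 coding exon in GENCODE vM21. Adam23 has 26, Adam32 has 22, Adam3 and Adam5 have 21 each, Adam2 has 20 and Adam18 has 19. Outside the 10 genes, exon structure and zinc site do not always go together. Adam6a, Adam6b and Adam29, with 1 coding exon, lack the full zinc site, and Adam9 and Adam10, with several, keep it. Other ADAM genes do follow the pattern, such as Adam25, with 1 coding exon and the site, and Adam22, with several and no site. The Adam23 transcript is the longest, at 6426 bases, while the other 9 lie between 2361 and 3496 bases. In the deposited coordinates, which are mm9, Adam23 spans 151 kb at chr1:63492478-63643089, and Adam2 lies at chr14:66646166-66696570. Adam18, Adam3, Adam5 and Adam32 lie in that order on chromosome 8 between positions 25712718 and 26059276. Adam24 is on the same chromosome at chr8:41760448-41767553, Adam1b and Adam1a are neighbours at chr5:121950106-121952989 and chr5:121968613-121971704, and Adam4 is at chr12:82520536-82522865. The 10 loci overlap neither each other nor any other ADAM gene on the lists used here. Overlap with the remaining features of the joint table was not tabulated.

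Adam1a and Adam1b are near-identical in part: 30.9% of the 50-base windows of the Adam1a transcript also occur in Adam1b, 51.9% occur in Adam1b or the unnamed gene Gm42878, and 32.4% of those of Adam1b occur in Adam1a. Adam4 shares 17.4% of its windows with the unnamed genes Gm4787, Gm33242 and Gm5746. The labels and processing notes do not say how shared reads were counted or whether strand was used. The split of reads between these copies is therefore uncertain.

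Levels are in FPKM, fragment counts scaled to transcript length and to library size, so they can be set side by side between genes. The joint table holds 1 deposited value per gene for lysate, supernatant, pellet1, pellet2 and MVH IP. The MVH IP value pools 3 libraries and each other value comes from 1 library. No difference below therefore has a replicate check, no standard deviation can be given, and the depth is unknown. Round spermatid markers (6 of 6, among them Tnp1 and Prm1) were listed in each of the 5 conditions, with a summed level between 17288 FPKM in pellet1 and 29798 FPKM in lysate. Most of that sum was Tnp1 (15259 FPKM in lysate, 7692 in pellet1) and Prm1 (13795 and 8650). Of the 6, these 2 were lower in pellet1 than in lysate and the other 4 (Acrv1, Acr, Spaca1 and Tssk1) were higher. The same held for MVH IP against lysate. Sertoli markers summed to 238 FPKM in MVH IP, against 46.4 FPKM in lysate and 20.4 FPKM in pellet2, with 5 of 6 listed and Amh at 0 in these 3 conditions. Spermatogonium markers (5 of 5 listed) summed to 70.4 FPKM in MVH IP, against 14.8 FPKM in lysate. Spermatocyte markers summed to 330 FPKM in MVH IP against 245 FPKM in lysate, Leydig markers to 213 against 282, and macrophage and blood markers to 0.0824 against 18.3. The part of these marker shifts in the values below was not tested. In such mixed samples the cell type that a value comes from is not given. Between sorted round spermatids and lysate, fewer cells of a type and less RNA per cell cannot be told apart.

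Adam23 was the most abundant of the 10 mRNAs in MVH IP and the scarcest in lysate. It measured 20.6 FPKM in lysate and 13.9 in supernatant, 148 in pellet1 and 256 in pellet2, and 577 in MVH IP. Both pellets and MVH IP stood above lysate and supernatant, and among those 3 MVH IP was the highest and pellet1 the lowest. Its rank among all genes above 0 was 170 of 15959 in MVH IP and 3660 of 17989 in lysate. Of the summed FPKM of the 10 genes, Adam23 held 1.23% in lysate and 0.856% in supernatant, 15.2% in pellet1 and 22.0% in pellet2, and 35.4% in MVH IP.

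**Figure D1:**
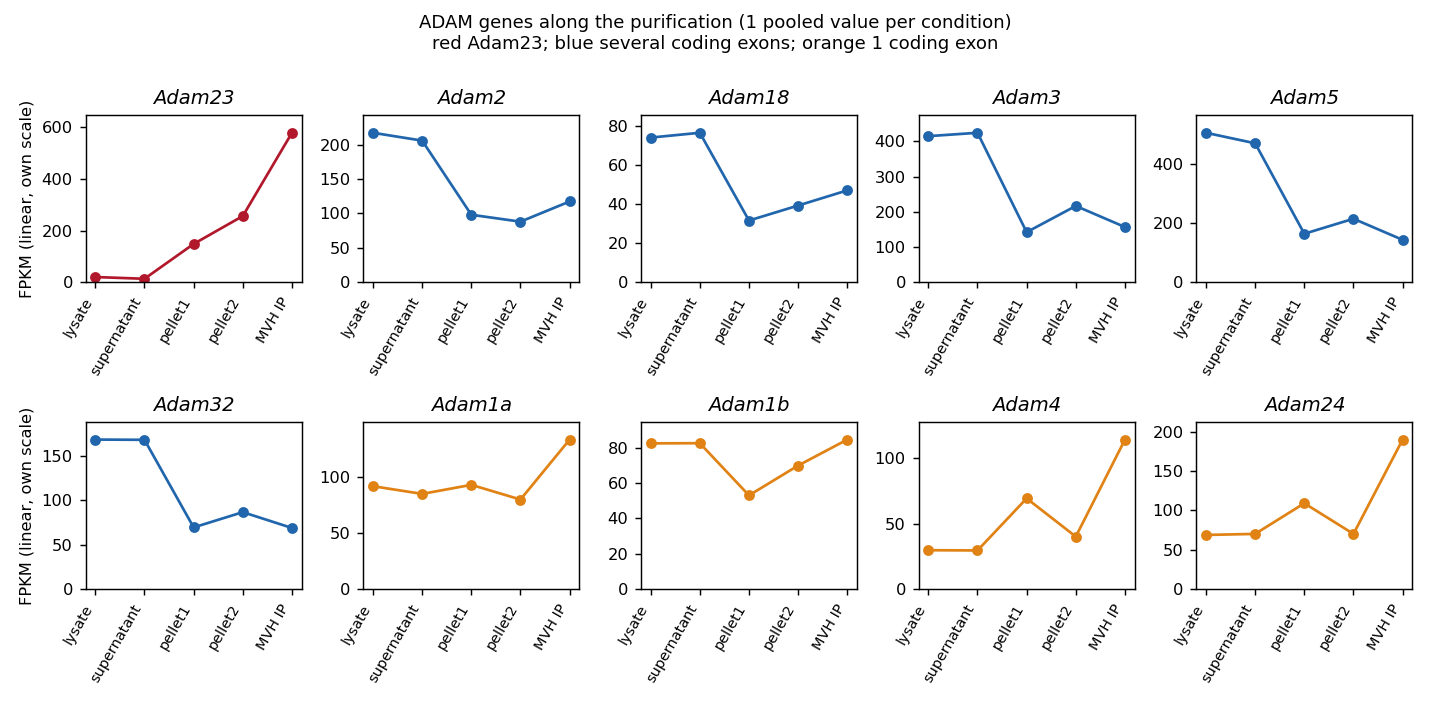
Level of each of the 10 ADAM genes in FPKM (vertical axis, linear, starting at 0, its own scale for each gene) in lysate, supernatant, pellet1, pellet2 and MVH IP, with 1 deposited value per point. The MVH IP value pools 3 libraries and each other value comes from 1 library. Adam23 is highest in MVH IP, at 577 FPKM, the 5 blue genes with several coding exons are highest in lysate or supernatant, and the 4 orange genes with 1 coding exon are highest in MVH IP.

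Differences are given as log2 ratios of (FPKM + 1), and a difference of at least 2-fold in either direction is called. In MVH IP the level of Adam23 was 26.8-fold that of lysate (log2 ratio 4.74), rank 33 of 13855 genes tested from the highest ratio down. Against supernatant it was 38.8-fold, rank 23 of 13847. The pellets stood above lysate as well: pellet1 was 6.92-fold over lysate (rank 123 of 12904) and pellet2 was 11.9-fold over lysate (rank 24 of 12941). Pellet2 over pellet1 was 1.72-fold, under the threshold. MVH IP over pellet2, the input by the protocol but not by the sample labels, was 2.25-fold, rank 4464 of 13808. The median gene was itself 0.79 higher on the log2 scale in MVH IP than in pellet2. Relative to that median the Adam23 ratio of MVH IP to pellet2 was 0.38 on the log2 scale. Supernatant against lysate gave -0.53 on the log2 scale.

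The authors' deposited table gives Cuffdiff q-values for Adam23 of 9.69e-12 for MVH IP against lysate, 5.70e-08 for pellet2 against lysate and 9.81e-05 for pellet1 against lysate. For MVH IP against pellet1 the authors' deposited table lists q = 0.0238. Neither MVH IP against pellet2 (q = 0.305) nor pellet2 against pellet1 (q = 0.484) passed 0.05 in the authors' deposited table. These q-values were copied as deposited and were not recomputed.

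The 5 genes closest to Adam23 in their path through the purification were Padi2, Trim43b, B4galt4, Fkbp7 and Speer3. Likeness was the root mean square difference of the 4 log2 ratios to lysate over the 5 conditions, and it ran between 0.41 for Padi2 and 0.51 for Speer3 among 13581 genes compared. Padi2, a peptidylarginine deiminase, measured 1.57, 1.32, 13.7, 21.3 and 48.0 FPKM in lysate, supernatant, pellet1, pellet2 and MVH IP. Fkbp7, a peptidylprolyl isomerase of the endoplasmic reticulum, was the only one of the 5 at a level like that of Adam23, with 26.7, 17.9, 209, 198 and 462 FPKM in the same order. The nearest of the other 9 ADAM genes, Adam4, stood at 2.28 from Adam23, and Adam5 was the farthest at 4.63.

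The partners of Adam23 in brain were scarce. Lgi1 measured 2.11 FPKM and Lgi4 measured 2.29 FPKM in MVH IP, and no LGI gene passed 2.29 FPKM in any of the 5 conditions. Neuron markers (Rbfox3, Snap25, Syt1 and Nefl, 4 of 4 listed) summed to 3.55 FPKM in MVH IP and 0.557 FPKM in lysate, with Rbfox3 at 0.0943 FPKM in MVH IP and at 0 in lysate. Most of that sum was Syt1, at 0.356 FPKM in lysate and 1.64 in supernatant, 2.90 in pellet1 and 2.27 in pellet2, and 2.30 in MVH IP. Nefl measured 1.07 FPKM in MVH IP, against 0.169 in lysate. The part of these markers in the Adam23 values was not tested.

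The fertilin genes differed in pattern. Adam2, which encodes fertilin beta, measured 217 FPKM in lysate and 206 in supernatant, 98.1 in pellet1 and 88.1 in pellet2, and 117 in MVH IP. Lysate and supernatant were above both pellets and MVH IP. Pellet1 was 2.20-fold and pellet2 was 2.45-fold lower than lysate, and MVH IP was 1.84-fold lower than lysate, under the threshold.

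Adam1b, the fertilin alpha of mature mouse sperm, measured 82.5, 82.6, 53.0, 69.9 and 84.6 FPKM in lysate, supernatant, pellet1, pellet2 and MVH IP. Its ratio of MVH IP to lysate was 0.04 on the log2 scale. Adam1a, whose protein stays in the endoplasmic reticulum of mouse testis germ cells, measured 91.4, 84.6, 92.6, 79.6 and 133 FPKM in the same order. MVH IP was the highest of its 5 values, at 1.45-fold of lysate. Neither fertilin alpha gene reached 2-fold in any of the 10 pairs of these conditions.

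Adam3, Adam5, Adam18 and Adam32, the chromosome 8 group, were each lower in MVH IP than in lysate in the joint table. In the separately scaled tables of MVH IP and lysate described further on, Adam5 was again lower, at a log2 ratio of -0.67, while Adam3, Adam18 and Adam32 were at 0.98, 0.19 and 1.54. Adam5 was the most abundant member in lysate, at 505 FPKM, and it measured 469 in supernatant, 164 in pellet1 and 215 in pellet2, and 144 in MVH IP. Adam3 measured 415 FPKM in lysate and 424 in supernatant, 142 in pellet1 and 217 in pellet2, and 157 in MVH IP. Adam32, another testis ADAM, measured 168 FPKM in lysate and 168 in supernatant, 69.5 in pellet1 and 86.7 in pellet2, and 68.9 in MVH IP. In each of these 3 genes both pellets and MVH IP lay below lysate and supernatant.

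Adam18 (tMDC III) had the lowest level of the group, at 74.1 FPKM in lysate and 76.5 in supernatant, 31.6 in pellet1 and 39.3 in pellet2, and 47.1 in MVH IP. Summed over the 4 genes, the level was 1162 FPKM in lysate and 1138 in supernatant, 408 in pellet1 and 557 in pellet2, and 416 in MVH IP. Against lysate, pellet1 was 3.06-fold lower for Adam5, 2.90-fold for Adam3, 2.40-fold for Adam32 and 2.30-fold for Adam18. MVH IP against lysate was 3.50-fold lower for Adam5, 2.63-fold for Adam3, 2.42-fold for Adam32 and 1.56-fold for Adam18, the last under the threshold. In the authors' deposited table none of these passed q of 0.05. The lowest q listed there were 0.0652 for Adam5 and 0.0771 for Adam3, both for pellet1 against lysate. In that comparison 1 of the 10 genes (Adam23) was higher and 0 were lower at q under 0.05 in the authors' deposited table, against 2.16% and 0.0999% of genes with a test.

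Within the family the closest pair of paths was Adam3 and Adam32, which differed by 0.15 in root mean square log2 ratio. Adam2 and Adam18 differed by 0.24 and Adam3 and Adam5 by 0.27. Outside the family the 5 genes most like Adam3 were Tram1, Ubb, Ddx25, Srpk1 and Gna11, at 0.08 to 0.10. Tram1, part of the channel that moves new proteins into the endoplasmic reticulum, measured 49.9, 51.3, 17.6, 23.2 and 18.6 FPKM in lysate, supernatant, pellet1, pellet2 and MVH IP. Ddx25, a testis RNA helicase, measured 174, 168, 60.6, 84.8 and 60.5 FPKM in the same order.

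Adam24 and Adam4 were higher in MVH IP than in the other conditions. Adam24, which encodes testase 1, a protease of mature mouse sperm, measured 68.9 FPKM in lysate and 70.2 in supernatant, 109 in pellet1 and 70.2 in pellet2, and 190 in MVH IP. Adam4, a sperm ADAM tied to the ADAM2 and ADAM3 complex in mouse, measured 29.8 FPKM in lysate and 29.6 in supernatant, 69.4 in pellet1 and 40.1 in pellet2, and 114 in MVH IP. In both genes pellet1 and MVH IP stood above lysate and supernatant, and pellet2 lay below pellet1.

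MVH IP was 2.73-fold over lysate for Adam24 and 3.75-fold for Adam4, and over pellet2 it was 2.68-fold for Adam24 and 2.80-fold for Adam4. The authors' deposited table lists q = 0.0540 for Adam4 and q = 0.153 for Adam24 in MVH IP against lysate. For MVH IP against supernatant the authors' deposited table lists q = 0.0404 for Adam4. At q under 0.05 in the authors' deposited table, 2 of the 10 genes (Adam23 and Adam4) were thus higher in MVH IP than in supernatant and 0 were lower, against 9.16% and 0.117% of genes with a test.

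Counted over the 10 genes, MVH IP was at least 2-fold higher than lysate for 3 (Adam23, Adam4 and Adam24) and at least 2-fold lower for 3 (Adam3, Adam5 and Adam32). Over all 13855 genes tested, 47.3% were higher and 7.53% lower. The median gene was 0.92 higher in MVH IP on the log2 scale. Relative to that median, 1 member (Adam23) was higher and 5 were lower (Adam2, Adam3, Adam5, Adam18 and Adam32), against 18.7% and 20.6% of all genes. The median ratio of the 10 genes was -0.30 on the log2 scale, below the 0.92 of all genes. Since Adam23 was chosen on this comparison, nothing is read from the share of members called higher. At q under 0.05 in the authors' deposited table, 1 member (Adam23) was higher and 0 were lower, against 7.05% and 0.115% of genes with a test.

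For MVH IP against supernatant the counts were again 3 higher and 3 lower, against 48% and 7.48% of all genes, and 1 and 5 relative to the median of 0.93 (19.4% and 21.6% of all genes). MVH IP against pellet2 gave 3 higher (Adam23, Adam4 and Adam24) and 0 lower, against 39.9% and 5.78% of all genes. Relative to the median of 0.79, that comparison gave 0 higher and 3 lower (Adam3, Adam5 and Adam32), against 14.2% and 13.7% of all genes. MVH IP against pellet1 gave 1 higher (Adam23) and 0 lower, against 34.2% and 4.57% of all genes. With the median of 0.73 subtracted, the counts were again 1 and 0, against 12.6% and 10% of all genes. These comparisons share the MVH IP values and are not independent of each other.

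Among the fractions, pellet1 was higher than lysate for 2 members (Adam23 and Adam4) and lower for 5 (Adam2, Adam3, Adam5, Adam18 and Adam32), against 16.8% and 9.41% of all genes. Pellet2 was higher than lysate for 1 (Adam23) and lower for 2 (Adam2 and Adam5), against 12.5% and 7.21% of all genes. Adam3, Adam18 and Adam32 missed 2-fold in that comparison, at 1.91-fold, 1.86-fold and 1.93-fold lower. With the median of 0.08 subtracted, 1 was higher and 4 were lower, against 10.8% and 8.51% of all genes. Against supernatant, pellet1 gave 2 higher and 5 lower (17.7% and 9.95% of all genes) and pellet2 gave 1 higher and 2 lower (13.4% and 6.97%). The last pair gave 1 higher and 5 lower once its median of 0.08 was subtracted (11.4% and 8.27%). Pellet2 against pellet1 gave 0 and 0 (5.94% and 6.67%), as did supernatant against lysate (0.751% and 1.46%).

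**Figure D2:**
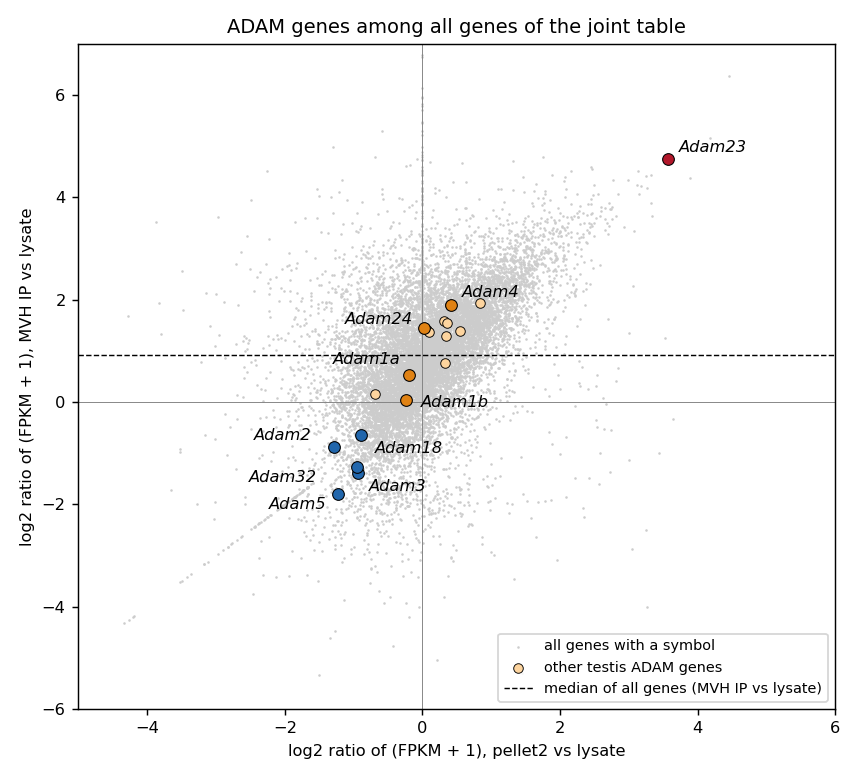
Log2 ratio of (FPKM + 1) of MVH IP to lysate (vertical axis) against that of pellet2 to lysate (horizontal axis) for the 10 ADAM genes, other testis ADAM genes and all genes with a symbol, where both axes share the lysate value. Adam23 stands at 3.57 and 4.74, in the upper right with few genes beyond it on either axis (rank 24 and rank 33), the 5 blue genes lie below 0 on both axes, and the dashed line is the median of all genes, 0.92.

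Apart from Adam23, the family divided by gene structure, a split made in the joint table after the values were seen and given with no test. For MVH IP against lysate, the 5 genes with several coding exons and no zinc-site codon (Adam2, Adam3, Adam5, Adam18 and Adam32) had a median log2 ratio of -1.28 and ran between -1.81 and -0.64. The 4 genes with 1 coding exon (Adam1a, Adam1b, Adam4 and Adam24) had a median of 0.99 and ran between 0.04 and 1.91. The ranges did not overlap in the joint table. In the separate tables they did, with Adam3 at 0.98 and Adam32 at 1.54 above Adam1b, a gene with 1 coding exon, at 0.97. In the joint table pellet1 against lysate gave medians of -1.26 for the 5 genes and 0.34 for the 4 genes, and pellet2 against lysate gave -0.95 and -0.09. Supernatant against lysate gave medians of 0.00 for both. Adam23, with 26 coding exons and no zinc-site codon, lay above both groups in every one of these comparisons except supernatant against lysate.

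Over all genes the same contrast was small. MVH IP against lysate had a median of 1.20 over 879 genes with 1 coding exon and 0.88 over 10913 genes with 2 or more, and 0.65 over the 2908 genes with 15 or more. For pellet1 against lysate these medians were 0.22, 0.03 and 0.00.

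Testis ADAM genes outside the 10 had values like those of the single-exon group. Of the 12 on that list, Adam20 was unlisted, Adam7 was at 0 in each condition, and the remaining 10 have 1 coding exon each. MVH IP was at least 2-fold over lysate for 8 of these 10 and lower for 0, against 47.3% and 7.53% of all genes, with a median of 1.41. Relative to the median of all genes, 1 of the 10 was higher and 0 were lower, against 18.7% and 20.6% of all genes. Adam39 measured 125 FPKM in MVH IP, against 33.01 in lysate, and Adam26b measured 80.0, against 20.1. Adam30 was the lowest of them in ratio, with 64.8 FPKM in MVH IP against 57.9 FPKM in lysate, and pellet1, at 24.6 FPKM, stood at -1.20 against lysate on the log2 scale. Somatic ADAM genes, 12 on the list and all with several coding exons, had 6 tested, of which 1 was higher and 1 lower, against the same 47.3% and 7.53%. After centring on that median these became 0 higher and 3 lower (18.7% and 20.6% of all genes). Adam15 measured 27.6 FPKM in MVH IP, against 8.54 in lysate, while Adam11 measured 0.485 in MVH IP, against 3.18 in lysate. Adam22, a close relative of Adam23 and likewise an LGI receptor, lay between 4.35 and 8.68 FPKM in the 5 conditions.

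**Figure D3:**
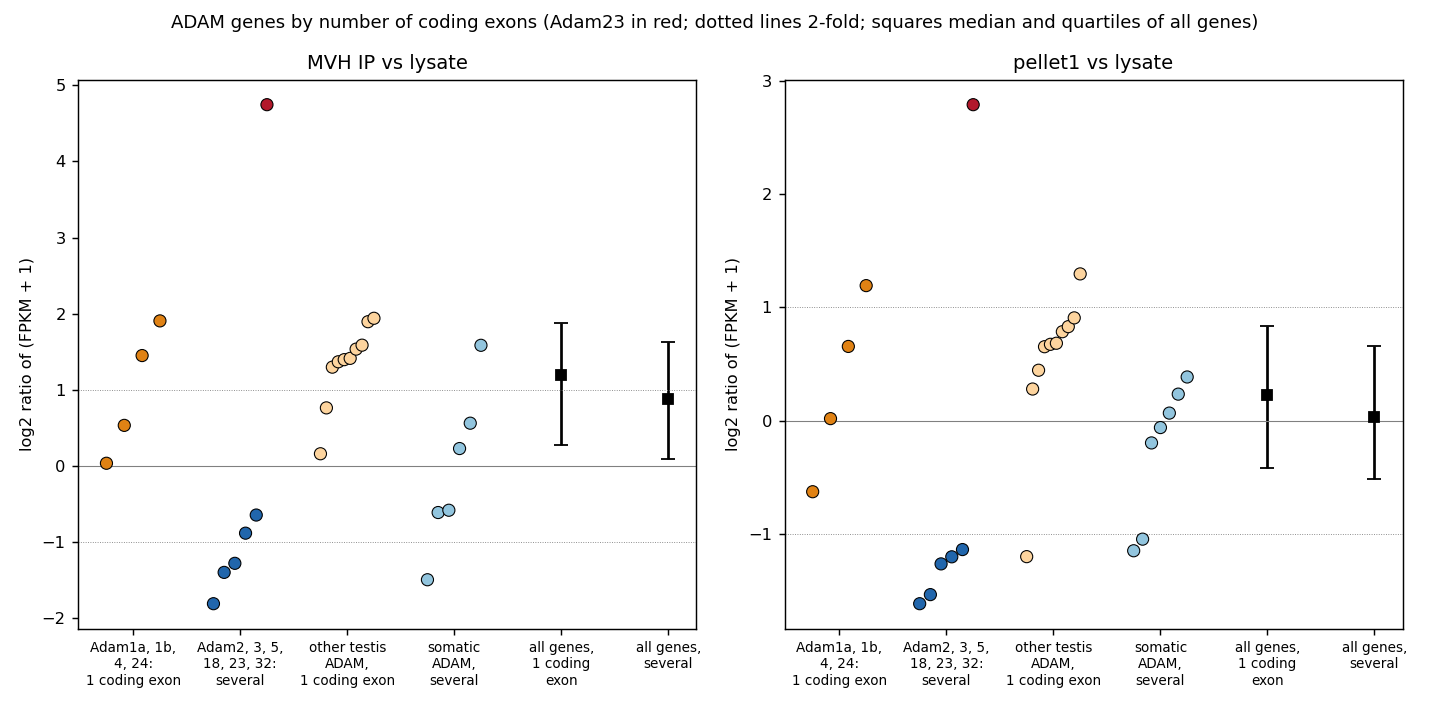
Log2 ratio of (FPKM + 1) for MVH IP against lysate (left panel) and pellet1 against lysate (right panel), with 1 point per ADAM gene by number of coding exons and squares with bars for the median and quartiles of all genes. In the left panel the 4 genes with 1 coding exon lie between 0.04 and 1.91 and the 5 blue genes between -1.81 and -0.64, while Adam23 (red) is at 4.74.

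Genes that fold, modify or deliver sperm ADAM proteins gave a mixed picture. Of 21 on the list, 18 were tested for MVH IP against lysate, of which 6 were at least 2-fold higher and 1 was lower, against 47.3% and 7.53% of all genes, with a median of 0.48 against 0.92 over all genes. After centring, 2 were higher and 4 were lower, against 18.7% and 20.6% of all genes. Clgn, the calmegin chaperone that ADAM3 needs in mouse, was the lower one, with 234 FPKM in MVH IP against 481 FPKM in lysate. In pellet1 it was at 172 FPKM. Calr3 and Pdilt, testis chaperones that act with it on ADAM3, measured 180 and 229 FPKM in MVH IP, whereas lysate held 117 and 95.4 FPKM. Prss37, an inactive protease homologue needed for ADAM3 processing in mouse, measured 250 FPKM in MVH IP, against 112 in lysate. Ly6k, a surface protein that ADAM3 needs in mouse, measured 142 FPKM in MVH IP, against 21.3 in lysate, 7.56 in pellet1 and 9.60 in pellet2. In the separately scaled tables described further on, Ly6k measured 35.5 FPKM in MVH IP and 7.98 in lysate. The median gene there was 2.03 higher in MVH IP on the log2 scale. For pellet1 against lysate, 1 of 19 tested was higher and 6 were lower, against 16.8% and 9.41% of all genes.

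Another 4 gene tables, of MVH IP, hetMIWI round spermatids, round spermatids and lysate, were scaled apart from the joint table and list genes from 5 FPKM upward. Ratios across them carry the scaling of each table, so they are read beside the median of all genes. Adam23 was listed in none of them, although its joint level in MVH IP was 577 FPKM. Of the 78 coding genes at or above that level in the joint table, 16 (20.5%), Adam23 included, were unlisted in the separate MVH IP table. For lysate, 16 of the 2982 coding genes at or above 20.6 FPKM (0.537%) were unlisted. A further deposited table of MVH IP, whose scale is not stated, does list Adam23, with a score of 122, while the other 9 members ran between 13.4 and 78.9. The joint MVH IP value of Adam23 was 4.71 times this score, against a median of 2.34 over the genes above 0 in both, so Adam23 stood relatively lower there. The level of Adam23 in round spermatids is therefore not given by the tables used.

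In sorted round spermatids Adam3, Adam32 and Adam5 led the family. Adam3 measured 406 FPKM in the separate MVH IP table, 741 in round spermatids and 204 in lysate. Adam32 measured 232 FPKM in MVH IP, 347 in round spermatids and 79.2 in lysate. Adam5 measured 137 FPKM in MVH IP, 283 in round spermatids and 218 in lysate. For these 3 genes round spermatids held the highest of the values listed.

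Round spermatids were 3.61-fold over lysate for Adam3 and 4.33-fold for Adam32. These were the 2 of 9 listed members called higher, with 0 lower, against 22.6% and 3.61% of all 4105 genes, and after the median of 0.31 was subtracted the counts were again 2 and 0 (15.2% and 8.04%). The other 7 members lay between -0.68 for Adam2 and 0.46 for Adam24 on the log2 scale. The round spermatid table lists 6 of 6 round spermatid and 4 of 5 spermatocyte markers and none of the Sertoli, Leydig, spermatogonium, macrophage and blood or neuron markers. Lysate, at the same 5 FPKM floor, lists 4 of 5 Leydig and 2 of 6 Sertoli markers. It lists 1 of 4 macrophage and blood, 0 of 5 spermatogonium and 0 of 4 neuron markers, so absence of these says little about the sort. Of the 6 round spermatid markers, 0 were called higher in round spermatids than in lysate and 2 lower, before and after centring. These 2 were Tnp1 (3459 FPKM against 7609 in lysate) and Prm1 (1614 against 5046.5). The median log2 ratio of the 6 was -0.17.

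MVH IP was higher than round spermatids for 3 of 9 members (Adam1a, Adam4 and Adam24) and lower for 1 (Adam5), against 75.4% and 0.545% of all 3855 genes. Relative to the median of 1.85, 0 were higher and 6 were lower (Adam1b, Adam2, Adam3, Adam5, Adam18 and Adam32), against 20.3% and 21.5% of all genes. Adam5 ranked 19 and Adam3 ranked 34 from the lowest ratio. Adam4 measured 93.5 FPKM in MVH IP, against 15.02 in round spermatids, and Adam24 measured 156 in MVH IP, against 35.5 in round spermatids. Adam1a measured 118 FPKM in MVH IP, against 32.1 in round spermatids, a log2 ratio of 1.84 that became -0.0108 once the median of all genes was subtracted.

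**Figure D4:**
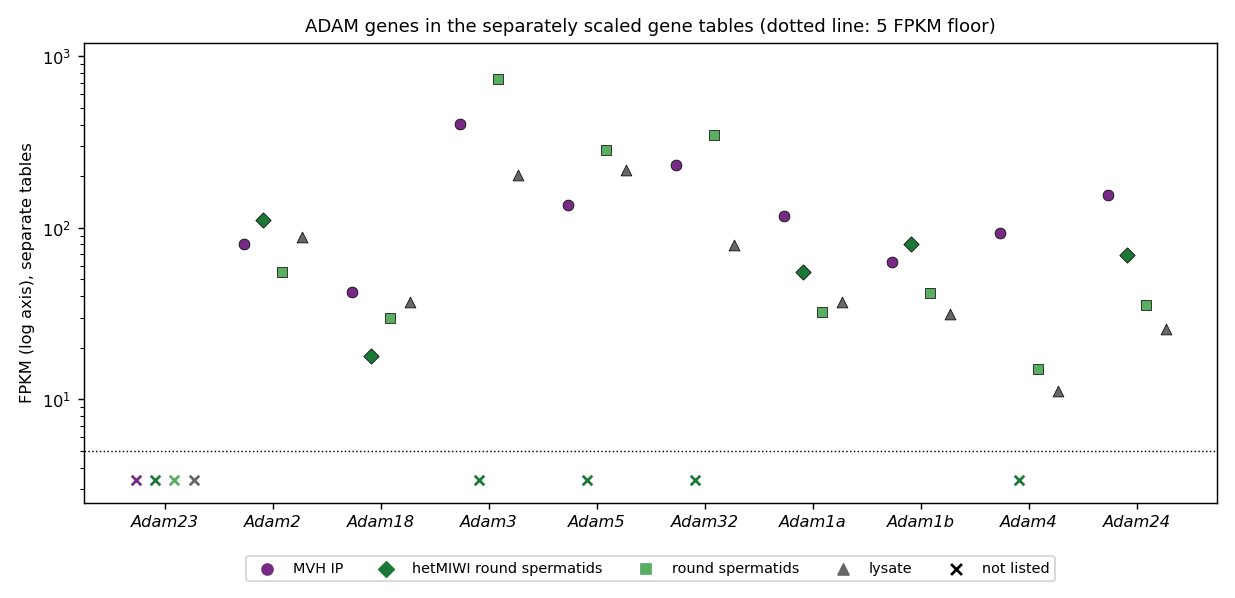
Level of the 10 ADAM genes in FPKM (vertical axis, log scale) in the separately scaled tables of MVH IP, hetMIWI round spermatids, round spermatids and lysate, with 1 deposited value per point, a dotted line at the 5 FPKM floor and crosses, drawn below it at no measured level, for genes not listed. Adam3 and Adam32 are highest in round spermatids, at 741 and 347 FPKM, and Adam23 has crosses only.

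The direction of Adam3, Adam18 and Adam32 between MVH IP and lysate depended on the table. In the joint table the log2 ratio of MVH IP to lysate was -1.40 for Adam3, -0.64 for Adam18 and -1.28 for Adam32. From the separate tables it was 0.98 for Adam3, 0.19 for Adam18 and 1.54 for Adam32, while the median gene stood at 2.03. In MVH IP, Adam3 measured 157 FPKM (joint) and 406 (separate), Adam32 68.9 and 232, and Adam18 47.1 and 42.4. The median gene had a joint MVH IP value 0.854 times its separate one. The cause of the gap for Adam3 and Adam32 was not tested. Relative to the median gene of its source, the ratio of Adam3 was -2.31 (joint) and -1.05 (separate), and that of Adam32 was -2.19 (joint) and -0.49 (separate). From those separate sources, 4 of 9 members were higher (Adam1a, Adam4, Adam24 and Adam32) and 0 were lower, against 78.9% and 0.473% of all 3806 genes. Once that median was subtracted, 0 were higher and 5 were lower, against 23.4% and 21.8% of all genes.

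In hetMIWI round spermatids 5 of the 10 genes were listed. Adam2 measured 111 FPKM in hetMIWI round spermatids, against 55.0 in round spermatids, and Adam1b measured 80.2, against 41.9. Adam24 measured 69.0 FPKM in hetMIWI round spermatids, against 35.5 in round spermatids, and Adam1a measured 55.5, against 32.1. Adam18 was the one member with the lower value in hetMIWI, at 17.98 FPKM, against 29.8 in round spermatids. None of the 5 reached 2-fold, and Adam2 was just under it at a log2 ratio of 1.00 (1.995-fold). Over all 2536 genes, 12.7% were higher and 10.5% lower. Relative to the median of 0.43, 0 members were higher and 1 (Adam18) was lower, against 3.59% and 18.3% of all genes.

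Adam3, Adam5, Adam32 and Adam4 were not listed in the hetMIWI table, although Adam3 was at 741 FPKM in round spermatids. Such gaps were common in that table: of the 21 genes at or above the Adam3 level in round spermatids, 8 (38.1%) were unlisted in hetMIWI, and of all 4956 genes, 2420 (48.8%) were. Against lysate, hetMIWI round spermatids were higher for 2 of 5 members (Adam1b and Adam24) and lower for 1 (Adam18, at 2.001-fold), against 30.6% and 2.56% of all 2659 genes. Relative to the median of 0.66, 0 were higher and 1 was lower, against 7.48% and 10.1% of all genes. The hetMIWI table lists 5 of 6 round spermatid and 4 of 5 spermatocyte markers and none of the Sertoli, Leydig or spermatogonium markers. Lysate, at the same floor, lists 2 of 6, 4 of 5 and 0 of 5 of these. Of the 5 round spermatid markers listed in hetMIWI, 2 were called higher than in lysate (Acr and Spaca1) and 2 lower (Tnp1 and Prm1). After centring, 0 were higher and 2 lower.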

How the data were processed

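RNA was sequenced from libraries primed with not-so-random hexamers and cut from a gel at 350 to 500 bp, per the labels' protocols. The submitters' processing notes name TopHat, Cuffdiff and mm9; for versions, read filters and strand, nothing is stated in those notes. The authors deposited FPKM, per the file headers, with 1 value per condition (pooled where a group has several libraries), in a joint table of 27024 features and in separate tables scaled apart. Cuffdiff p-values and q-values come from the authors' deposited table, per the file headers. A further MVH IP table and the lysate element table were kept as a deposited score, because the scale is not stated or 27.6% of values are whole (tolerance 0; the lowest is 21.005). MVH IP differed between pairs for 12 features, 0 of them members. The small RNA column of that MVH IP table, 1 in number, was not used.

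Log2 ratios of (FPKM + 1) were taken for genes that carry a symbol and average 1 FPKM or more in the pair; this scale understates the change of low genes. The call was 2-fold. Centred ratios subtract the median of all genes tested. Where a separate table holds a symbol more than once, its highest value was kept. The rule for names took all 10 members, the 5 genes closest to Adam23 and to Adam3 and, as space allowed, members of the ADAM, folding and LGI lists at 1 FPKM or more in any condition. Which of those list members are named was chosen with their values seen, and Adam7, Adam20, Amh, Rbfox3 and Snap25 are named outside that level. Members and lists were chosen with earlier results of these data known. Stretches and exon counts came from GENCODE vM21 (GRCm38), to which 10 of 10 symbols matched. The code for the calls was checked on lysate values multiplied by fixed factors without noise, which says nothing about how reliable the calls are in these data. Python 3.11.15, pandas 2.3.3, numpy 2.4.6 and matplotlib 3.10.9 were used.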

Additional observations from a re-analysis of the deposited data

How the results depend on the processing

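Of 94 alternative counts of members past the threshold, higher and lower summed, 81 stayed within 1.5 times the reported count, 11 were larger and 2 smaller, over another pseudocount (0.1 FPKM), filter (none, or 5 FPKM), threshold (1.5-fold), centring, genes at 0 left out, and the other source table. That sum ignores direction: in 14 of the 81 the split into higher and lower differed. No filter, the 5 FPKM filter and genes at 0 left out could not change any member, and they account for 15 of the 81 each. Centring turned 3 higher and 0 lower into 0 and 3 for MVH IP against pellet2, 3 and 3 into 1 and 5 against lysate and against supernatant, 3 and 1 into 0 and 6 against round spermatids, and 4 and 0 into 0 and 5 against lysate in the separate tables. The separate tables gave 4 and 0 for MVH IP against lysate, where the joint table gave 3 and 3. At 1.5-fold the counts were 4 for MVH IP against pellet1 (1 at 2-fold), 6 for pellet2 against lysate (3), 6 for pellet2 against supernatant (3), 4 for pellet2 against pellet1 (0), 7 for MVH IP against lysate in the separate tables (4) and 5 for hetMIWI against round spermatids (0). Centring gave 5 for pellet2 against lysate (1 higher, 4 lower), 6 for pellet2 against supernatant (1 higher, 5 lower), 1 for hetMIWI against round spermatids and 1 for hetMIWI against lysate (3 uncentred). A pseudocount of 0.1 FPKM gave 1 for hetMIWI against round spermatids, where Adam2 lies at the threshold. With the joint-table lysate the counts were 4 for round spermatids against lysate (1 higher, 3 lower; 2 as reported) and 1 for hetMIWI against lysate.

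Of 854 alternative ratios of single genes, 739 kept direction and call and 6 reversed. The settings that could not change any member (no filter, the 5 FPKM filter, and genes at 0 left out) account for 137 of the 739 each. Reversed were Adam3 (0.98) and Adam32 (1.54) for MVH IP against lysate with separate tables, Adam1a when centred (-0.0108 for MVH IP against round spermatids, -0.38 for MVH IP against lysate in the separate tables), Adam32 when centred in those separate tables (-0.49), and Adam1b for hetMIWI against lysate with the joint-table lysate (-0.0404). Apart from what each alternative's construction changes, the cause was not tested. No paired analysis was possible because there is 1 deposited value per condition, with no replicate numbers. Leaving out single replicates was not run for the same reason. With depth unknown, no counting error can be given.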

Other observations

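Transposable element copies listed in the deposited lysate element table lay unevenly within the ADAM loci. Adam32 held 36 of them (3.20 per 10 kb), Adam3 held 12 (2.47 per 10 kb), Adam2 and Adam5 held 5 each and Adam18 held 1. Adam23, Adam1a, Adam1b, Adam4 and Adam24 held 0. The loci of Adam1a, Adam1b, Adam4 and Adam24 are short, between 2.33 and 7.11 kb. Adam23 has the longest locus of the 10, at 151 kb, and the lowest level in lysate, at 20.6 FPKM. In Adam32, 23 of the 36 copies were LINE elements, and the highest value there was 333 for a copy of Lx7. In Adam3 the highest was a copy of Lx9, at 196. These values are a score with no fixed unit, and the table lists only copies at 21.005 or more.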
